A study of Homo sapiens with 12 samples.

Results

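Histone genes were examined in 2 human cell lines after knockdown of NCSTN, which encodes nicastrin, a subunit of gamma-secretase. A gene was taken where its older or current symbol is that of a histone and its probe passed a detection p of 0.01 on 3 or more of 12 arrays. Of 45 annotated histone probes, 42 met that condition. They read 35 of the 38 annotated histone genes, among 11075 genes and 18152 probes kept in all. By the older symbols, 25 of these genes belong to the HIST clusters and 10 are variant genes that lie outside them. Only probes with a gene in the platform annotation can be members, so histone genes without such a probe were not analysed here.

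Expression was measured with 1 Illumina BeadChip array per RNA sample, and 3 arrays per group. HEK001 is an epidermal keratinocyte line immortalised with papillomavirus oncogenes, and HEK293 is an embryonic kidney line carrying adenovirus sequence. In each line 1 group is labelled siNCSTN, and these cells carried a single lentiviral hairpin against NCSTN (A08 in the titles). The other group is labelled siLuciferase and carried a hairpin against luciferase in the pLKO vector. All 4 groups were thus infected, treated with polybrene at 10 µg/mL and selected with puromycin for about 2 weeks, HEK293 at 2 µg/mL and HEK001 at a labelled 0.5 whose unit is incompletely written. HEK001 grew in serum-free keratinocyte medium with EGF and pituitary extract, and HEK293 in DMEM with serum, so line and medium cannot be told apart. The line was taken from the titles and the cell line entries, because the source name gives HEK001 for all samples. Whether each replicate was a culture of its own is not stated, and the p-values therefore describe the spread of these samples, which may be technical.

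Histones are the proteins around which DNA is wound. A pair each of H2A, H2B, H3 and H4 forms the nucleosome core, and H1 binds the linker. The clustered genes are mostly replication-dependent: they have no introns, are transcribed in S phase and give mRNAs that end in a stem-loop in place of a poly(A) tail. Variant genes such as H2AZ1 and H3-3A have introns and polyadenylated mRNAs, and are transcribed throughout the cell cycle. Some clustered genes, among them H1-2, H2AC6 and H2BC5, also give polyadenylated mRNAs, mainly in cells that leave the cycle. The cRNA of these arrays was made from 100 ng of total RNA with an amplification kit that primes on poly(A) tails. A clustered gene is therefore read mainly through transcripts that carry a tail, and its value is not a measure of its total mRNA. Whether tail use or transcript number differed between groups was not tested. Several clustered genes are near-identical copies (H2AC18 with H2AC19, H4C14 with H4C15), and reading of one copy by the probe of another was not analysed here.

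The arrays were alike in quality, with 14818 to 16333 probes detected at p under 0.01 and Pearson's r between 0.9895 and 0.9943 across genes within groups. NCSTN fell by 3.09 on the log2 scale in HEK001 (SE 0.116, limma adjusted p = 1.39e-08) and fell by 1.97 in HEK293 (SE 0.116, limma adjusted p = 2.38e-07), and every knockdown array lay below every control array of its line. Of 10 listed keratinocyte markers 6 were measured, and these were detected on all HEK001 arrays and on no HEK293 control array, KRT5 and KRT14 among them. In HEK001 knockdown cells 4 of them rose, and LAMB3 was the one detected in HEK293 knockdown cells. Their mean log2 level was 11.68 to 11.71 on the HEK001 control arrays and 12.07 to 12.28 on the knockdown arrays, and 4.47 to 4.61 and 4.65 to 4.78 in HEK293. Of 16 markers of other cell types 4 were measured, with mean levels of 5.05 to 5.24 and 5.17 to 5.31 in HEK001, and 5.94 to 5.98 and 5.32 to 5.50 in HEK293. COL1A1, CD14 and PMEL were detected on all 3 HEK293 control arrays, and 3 of the 4 markers fell in HEK293 knockdown cells. The part of these markers in the histone results was not tested. The lowest value of a detected probe was between 5.26 and 5.50 on each array, and levels under that are called near background below.

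In HEK293 most calls among histone genes were rises of clustered genes, and in HEK001 calls were fewer and went both ways. Differences are log2 values of knockdown minus control with the standard error of the fit, and a gene was called at a limma adjusted p under 0.05 over all 11075 genes. In HEK293, 13 of the 25 clustered genes rose, 1 fell and 11 were not called, with a median difference of 0.61 against 0.01 over all genes. The size of that median depended on the processing: it was 0.37 without background correction and 0.33 with an offset of 50. Over all genes 12.4% were called higher and 13.5% lower in HEK293. In HEK001, 5 of the 25 clustered genes rose and 2 fell, with a median of 0.10 against −0.01 over all genes, of which 8.35% were called higher and 7.89% lower. Of the 10 variant genes, 2 rose and 1 fell in HEK293 (median 0.10), and 1 rose and 2 fell in HEK001 (median −0.17). The variant counts of 3 in 10 stand against 25.9% of all genes called in either direction in HEK293 and 16.2% in HEK001. Between the knockdown and control arrays of HEK293 there was no overlap for 13 clustered genes that were higher and 1 that was lower, where 20.1% and 20.2% of all genes were.

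Some clustered genes were kept because of the knockdown arrays of HEK293. H2AC11, H3C10 and H2BC8 were detected on all 3 of those arrays and on at most 1 other, so they could hardly have been listed without being higher there. Without them 10 of 22 clustered genes rose and 1 fell in HEK293, with a median of 0.33, against 12.4% and 13.5% of all genes. H2AC17 and H1-1 also passed only with those arrays and stay among the 22, and neither was called in HEK293. Of the 11 clustered genes detected on all 12 arrays, 8 rose and 1 fell in HEK293, with a median of 0.99. In HEK001, 5 of these 11 rose and 1 fell, with a median of 0.28. Over all genes detected on all 12 arrays, 13.9% were called higher and 13.7% lower in HEK293, and 8.37% and 9.18% in HEK001. Detection itself differed between the classes: 9 of 10 variant genes were detected on all 12 arrays, against 11 of 25 clustered genes and 7623 of all 11075 genes. In the HEK293 control group 14 clustered genes were detected on all 3 arrays, in the HEK293 knockdown group 19, in the HEK001 control group 17 and in the HEK001 knockdown group 14. The 19 include H2AC11, H3C10, H2BC8 and H2AC17, which passed the detection rule only with those arrays. Such counts over all genes were not made, so these are not read as a difference between groups.

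Cells in S phase make most histone mRNA, and a change in the share of cycling cells cannot be told apart here from a change per cell. Most listed cell cycle genes fell in HEK001, where 7.89% of all genes were called lower and 8.35% higher. Of 19 measured S phase genes 13 fell and 0 rose there (median −0.37), with the thymidylate synthase gene TYMS at −0.86 and the replication factor gene GINS2 at −0.65. Of 20 G2/M genes 16 fell and 0 rose (median −0.61), with the topoisomerase gene TOP2A at −1.0 and the cyclin gene CCNA2 at −0.79. In HEK293, 3 S phase genes rose and 1 fell (median 0.03), with the ribonucleotide reductase gene RRM2 at 1.21, the flap endonuclease gene FEN1 at 0.35 and the polymerase gene POLA1 at −0.63. There 2 G2/M genes rose and 1 fell (median 0.03): BIRC5 rose by 0.63, KIF11 by 0.43, and TOP2A fell by 0.30. Over all genes 12.4% were called higher and 13.5% lower in HEK293. The HEK293 shares of both lists called higher were near that, so the genes named there are given as values only. The part of cell cycle genes in the histone results was not tested.

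H2AZ1 encodes H2A.Z, the H2A variant found in nucleosomes beside transcription start sites, and it was the histone gene that fell in both lines. On the HEK001 control arrays its log2 level was 13.38, 13.39 and 13.42, and on the knockdown arrays 11.95, 12.03 and 11.92. On the HEK293 control arrays it was 13.60, 13.63 and 13.64, and with the hairpin 12.57, 12.38 and 12.52. Every control array lay more than 1 unit above every knockdown array of its line. The fall was 1.43 in HEK001 (SE 0.0835, limma adjusted p = 8.94e-07), a 2.70-fold lower level, and 1.13 in HEK293 (SE 0.0835, limma adjusted p = 1.59e-06), a 2.19-fold lower level. The difference of 0.30 between the lines did not pass (SE 0.118, limma adjusted p = 0.085). Among 11075 genes it ranked 7 from the lowest difference in HEK001 and 110 in HEK293. No other histone gene was called lower in both lines, where 1.46% of all genes were, and no histone gene was called in opposite directions, where 2.87% of all genes were. Its value rests on 1 probe.

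The 130 bases before the RefSeq start of H2AZ1 (GRCh38.p14, chr4:99950276-99950405, minus strand, chromosome 4) are shown because it fell in both lines. Capitals mark CCAAT boxes (CCAAT on either strand, so ATTGG where it lies on the other strand) and the TATA box (TATAAA).
H2AZ1: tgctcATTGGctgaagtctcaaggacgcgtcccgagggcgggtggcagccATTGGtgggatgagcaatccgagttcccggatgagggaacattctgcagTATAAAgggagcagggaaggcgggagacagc
This variant gene thus has the CCAAT and TATA letters that many clustered genes have.

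H2AZ2 encodes a second, near-identical H2A.Z protein, and its probe was detected on 4 of 12 arrays. It was 4.87, 4.91 and 5.74 on HEK001 control arrays against 4.91, 5.03 and 4.64 with the hairpin, and 5.64, 4.86 and 5.20 against 5.58, 5.64 and 4.87 in HEK293. These levels overlapped and were mostly near background, so no change of it is stated. H2AJ, an H2A variant gene on chromosome 12, rose in both lines. It was 9.58, 9.56 and 9.59 on HEK001 control arrays and 10.00, 9.94 and 10.12 with the hairpin, and 9.07, 8.99 and 9.13 against 9.54, 9.49 and 9.58 in HEK293. All knockdown arrays lay above the control arrays of the same line. The rise was 0.44 in HEK001 (SE 0.085, limma adjusted p = 0.00384) and 0.47 in HEK293 (SE 0.085, limma adjusted p = 0.00147). Both calls were lost with median scaling over all probes (0.37 and 0.47, limma adjusted p = 0.422 and 0.182).

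Among the remaining variant genes, MACROH2A1 fell in HEK001 and H3-3A rose in HEK293, and H2AX passed in neither line. H2AX encodes the H2A variant that is phosphorylated at DNA double-strand breaks. It was 6.84, 6.64 and 6.80 on HEK001 control arrays, 6.35, 6.71 and 6.28 on knockdown arrays, and 7.65, 7.56 and 7.86 against 8.06, 7.76 and 8.05 in HEK293. The groups overlapped in both lines, and neither difference passed (−0.31 and 0.27, limma adjusted p = 0.135 and 0.169). MACROH2A1, of the H2A variant with a large macrodomain that is enriched on the inactive X, was 13.45, 13.43 and 13.38 in HEK001 control cells and 13.10, 13.01 and 13.06 with the hairpin. It fell by 0.36 in HEK001 (SE 0.0896, limma adjusted p = 0.0156). In HEK293 it was 13.35, 13.42 and 13.15 against 13.13, 13.17 and 13.14, which overlapped (−0.16, limma adjusted p = 0.222). Its probes disagreed: over all kept probes another gave −0.32 in HEK001 (limma adjusted p = 0.0661), and the third gave 0.30 in HEK001 (limma adjusted p = 0.187) and −0.54 in HEK293 (limma adjusted p = 0.017). The HEK001 call was lost without control replicate 1 (−0.35, limma adjusted p = 0.0505) or knockdown replicate 2 (−0.34, limma adjusted p = 0.0534). It was also lost with median scaling over all probes.

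H3-3A and H3-3B encode the same protein, histone H3.3, which is deposited outside replication. H3-3A was 13.43, 13.42 and 13.52 in HEK001 control cells and 13.43, 13.56 and 13.54 with the hairpin, with overlap. In HEK293 it was 13.95, 13.69 and 13.77 against 14.20, 14.07 and 14.03, and rose by 0.30 (SE 0.0943, limma adjusted p = 0.035). Its other 2 probes gave 0.20 and 0.17, which did not pass over all kept probes (limma adjusted p = 0.29 and 0.207). The H3-3A call was lost without HEK293 control replicate 2 or 3 or knockdown replicate 1 or 2 (0.24 to 0.31). It was also lost with the HEK293 arrays fitted alone (limma adjusted p = 0.0833) or with median scaling over all probes. H3-3B was 8.44, 8.17 and 8.31 against 8.56, 8.62 and 8.53 in HEK001, and 9.93, 9.84 and 9.84 against 9.55, 9.73 and 9.74 in HEK293. Its arrays did not overlap in either line, in opposite directions, but neither difference passed (0.26 and −0.20, limma adjusted p = 0.0837 and 0.158). H1-10, MACROH2A2 and H3-5, a retrogene copy of H3-3B, were not called in either line, with differences between −0.29 and 0.31. Whether the H3-5 probe also reads H3-3B was not analysed here.

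Of the clustered genes, 4 rose in both lines, where 1.15% of all genes did: H2BC5, H2AC6, H2AC19 and H2BC12. H2BC5 and H2BC12 encode H2B, and H2AC6 and H2AC19 encode H2A. H2BC5 was 7.57, 7.55 and 7.65 on HEK001 control arrays and 9.15, 8.79 and 8.97 with the hairpin. In HEK293 it went from 6.84, 6.64 and 6.52 to 8.71, 8.34 and 8.65. Every knockdown array was above every control array of either line. The rise was 1.38 in HEK001 (SE 0.126, limma adjusted p = 2.3e-05), or 2.60-fold, and 1.90 in HEK293 (SE 0.126, limma adjusted p = 7.28e-07), or 3.74-fold. It ranked 18 and 15 from the highest difference among all genes. A second H2BC5 probe gave 1.21 and 1.27 (limma adjusted p = 8.92e-05 and 2.01e-05 over all kept probes).

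H2AC6 was 6.48, 6.08 and 6.39 in HEK001 control cells and 7.36, 7.45 and 6.98 with the hairpin. In HEK293 it was 5.73, 5.72 and 5.56 against 6.83, 6.65 and 6.64. It rose by 0.94 in HEK001 (SE 0.137, limma adjusted p = 0.000659) and by 1.04 in HEK293 (SE 0.137, limma adjusted p = 0.000149), with no overlap in either line. The difference between these responses, 0.09, did not pass (SE 0.193, limma adjusted p = 0.778). H2AC19 was 7.80, 7.96 and 7.94 against 8.40, 8.34 and 8.58 in HEK001, and 8.28, 8.40 and 8.21 against 9.23, 9.23 and 9.38 in HEK293. It rose by 0.54 (SE 0.0978, limma adjusted p = 0.0028) and 0.99 (SE 0.0978, limma adjusted p = 1.51e-05). Neither line's arrays overlapped. H2BC12 was 10.67, 10.39 and 10.53 against 10.89, 10.94 and 10.91 in HEK001, and 10.95, 11.07 and 10.93 against 11.86, 11.74 and 11.76 in HEK293. It rose by 0.39 in HEK001 (SE 0.0942, limma adjusted p = 0.0151), a call that was lost without control replicate 2 (0.31, limma adjusted p = 0.0662), and by 0.80 in HEK293 (SE 0.0942, limma adjusted p = 6.15e-05). With median scaling over all probes the HEK001 calls of H2AC19 (0.49, limma adjusted p = 0.208) and H2BC12 (0.31, limma adjusted p = 0.547) were lost. The second H2BC12 probe gave 0.59 and 0.83 (limma adjusted p = 0.0346 and 0.00346 over all kept probes).

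**Figure D1:**
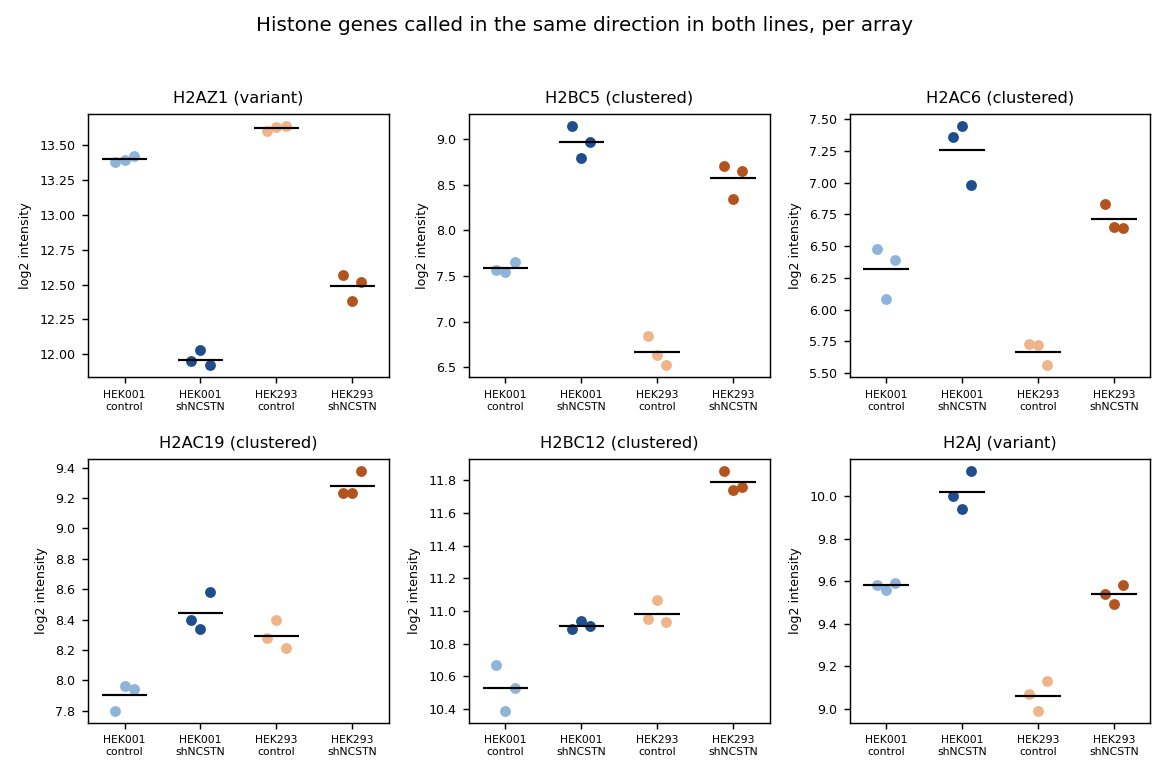
Normalized log2 intensity on each of the 12 arrays for the 6 histone genes called in the same direction in both lines. Points are arrays, black lines are group means of 3 arrays, and the vertical axes differ between panels. H2AZ1 lies lower with the NCSTN hairpin in both lines, and the other 5 genes lie higher.

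In HEK293 a further group of clustered genes rose that was not called in HEK001. H4C8, which encodes histone H4, had the second largest rise among histone genes. It was 5.67, 5.86 and 5.61 on HEK293 control arrays and 7.45, 7.77 and 7.41 with the hairpin, a rise of 1.83 (SE 0.145, limma adjusted p = 2.66e-06), or 3.56-fold. In HEK001 it lay between 4.77 and 5.30 on all 6 arrays and was detected on none. The H4 genes H4C14 and H4C15, near-identical copies, both rose in HEK293. H4C14 was 7.22, 7.01 and 7.20 against 8.53, 8.59 and 8.40 there, and 6.57, 6.34 and 6.44 against 6.39, 6.72 and 6.67 in HEK001. It rose by 1.36 in HEK293 (SE 0.112, limma adjusted p = 3.42e-06). H4C15 was 6.01, 5.46 and 6.49 against 7.35, 7.41 and 7.36 in HEK293, and 5.97, 5.99 and 5.77 against 5.83, 5.82 and 5.30 in HEK001. The HEK293 rise of 1.38 (SE 0.21, limma adjusted p = 0.00043) came from control arrays that spread over about 1 unit.

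H1-2, a linker histone gene, was 8.64, 8.69 and 8.75 on HEK293 control arrays and 10.11, 9.83 and 9.91 with the hairpin. It rose by 1.26 (SE 0.138, limma adjusted p = 3.56e-05), or 2.39-fold. In HEK001 it was 8.63, 8.84 and 8.59 against 8.57, 8.72 and 8.14, with overlap. H2AC18 was 8.61, 8.58 and 8.69 against 9.64, 9.63 and 9.77 in HEK293 and rose by 1.05 (SE 0.132, limma adjusted p = 0.000102). In HEK001 it was 7.89, 7.84 and 8.01 against 8.45, 8.29 and 7.84, with overlap. Its second probe gave 0.64 in HEK293, which did not pass over all kept probes (limma adjusted p = 0.0827). H2AC20 rose by 0.87 in HEK293 (SE 0.105, limma adjusted p = 7.33e-05).

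For 3 genes the HEK293 control cells gave only a bound, because no control array detected the probe. H2BC8 was 5.32, 4.60 and 5.36 there and 6.43, 6.22 and 6.18 with the hairpin, at least 1.91-fold higher (limma adjusted p = 0.00234). H3C10, an H3 gene, was at least 1.26-fold higher (limma adjusted p = 0.00451) and H2AC11 at least 1.21-fold higher (limma adjusted p = 0.00538). The H2AC11 call was lost with median scaling over all probes (limma adjusted p = 0.0547). These bounds set the knockdown mean against the higher of the probe's own value and the lowest detected value on each control array. The p-values are of the fit to the measured values, not of the bounds. H2BC8, H3C10 and H2AC11 were kept through the HEK293 knockdown arrays, so their rises are given as values only. The clustered gene that fell in HEK293 was H2AC25, an H2A gene of the HIST3 cluster, by 0.49 (SE 0.127, limma adjusted p = 0.0128). That call was lost without control replicate 1 (−0.38, limma adjusted p = 0.0574) or with median scaling over all probes (−0.44, limma adjusted p = 0.222).

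In HEK001, 3 clustered genes were called that were not called in HEK293. H4C3, another H4 gene, was 13.73, 13.68 and 13.42 in HEK001 control cells and 12.38, 12.67 and 13.00 with the hairpin. The knockdown arrays spread over about 0.6 and stayed below the controls, and the gene fell by 0.93 (SE 0.146, limma adjusted p = 0.00113). In HEK293 it was 14.11, 14.10 and 14.19 against 14.01, 14.09 and 14.34, a difference of 0.01 with overlap. H2BC9 was 6.79, 7.05 and 7.15 against 6.27, 6.40 and 6.45 in HEK001 and fell by 0.62 (SE 0.13, limma adjusted p = 0.00636). No HEK293 array detected it. H2BC21 was 6.13, 5.65 and 5.90 against 6.68, 6.47 and 6.53 in HEK001 and rose by 0.67 (SE 0.201, limma adjusted p = 0.0384). Leaving out any 1 HEK001 array other than control replicate 1 ended that call (0.55 to 0.71, limma adjusted p 0.0687 to 0.137).

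The response differed between the lines for 17 of 35 histone genes, tested as the HEK293 difference minus the HEK001 difference, against 24.5% of all genes. Of the 25 clustered genes 14 were more positive in HEK293 and 1 was more negative, and of the 10 variant genes 1 and 1. Without H2AC11, H3C10 and H2BC8, which were kept through the HEK293 knockdown arrays, 12 of 22 clustered genes were more positive and 1 more negative. These 12 still include H2AC17, which also passed the detection rule only with the HEK293 knockdown arrays. Elsewhere it was detected on 1 HEK001 control array and 1 HEK293 control array. Over all genes 11.7% were more positive and 12.8% more negative. The differences over 1 unit for genes detected in HEK293 control cells were 1.81 for H4C8 (SE 0.206, limma adjusted p = 8.37e-05), 1.64 for H4C15 (SE 0.297, limma adjusted p = 0.00182), 1.47 for H1-2 (SE 0.196, limma adjusted p = 0.000242) and 1.22 for H4C14 (SE 0.159, limma adjusted p = 0.000219). H4C8 was not detected in HEK001, and H2BC8, H3C10 and H2AC17 were detected on all arrays of no group but HEK293 knockdown cells. The differences of these genes between the lines are therefore not measured on both sides. The same holds for H2BC9, which no HEK293 array detected. Without HEK293 control replicate 1 the count was 10 in place of 17. With median scaling over all probes it was 6, with 6 more positive and 0 more negative in place of 15 and 2. That setting called 796 of all genes for the difference, in place of 2711.

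**Figure D2:**
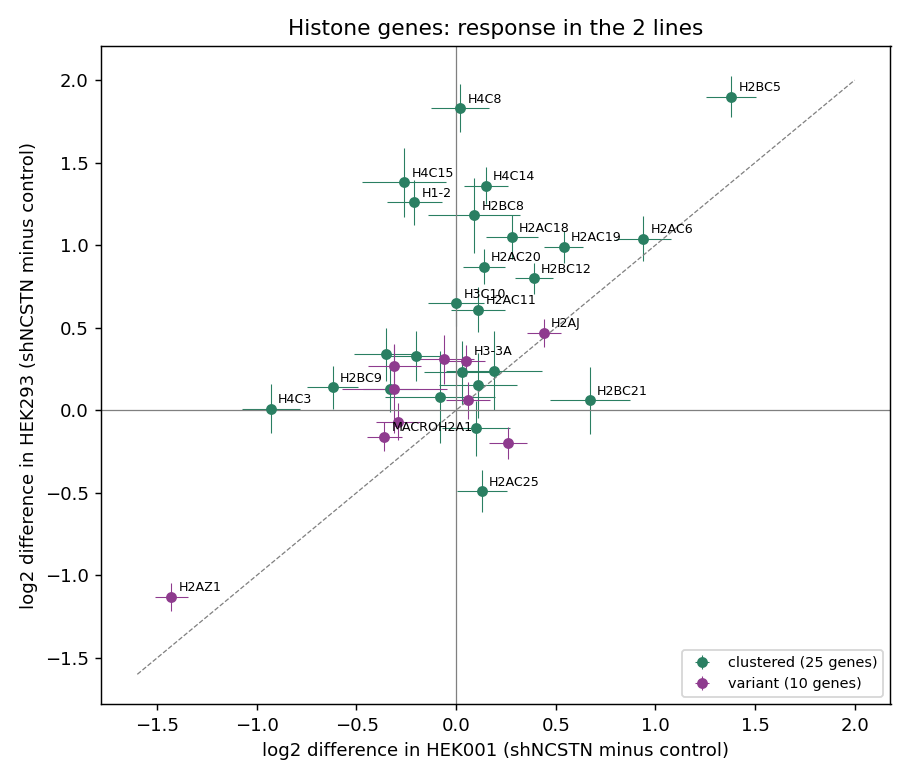
Log2 difference (knockdown minus control) in HEK293 against that in HEK001 for all 35 histone genes, with the standard errors of the fit as bars and a dashed line where both are equal. Genes called in at least 1 line are named. Most clustered genes lie above the dashed line, some of them with a probe near background in 1 line, and H2AZ1 lies apart at the lower left.

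**Figure D3:**
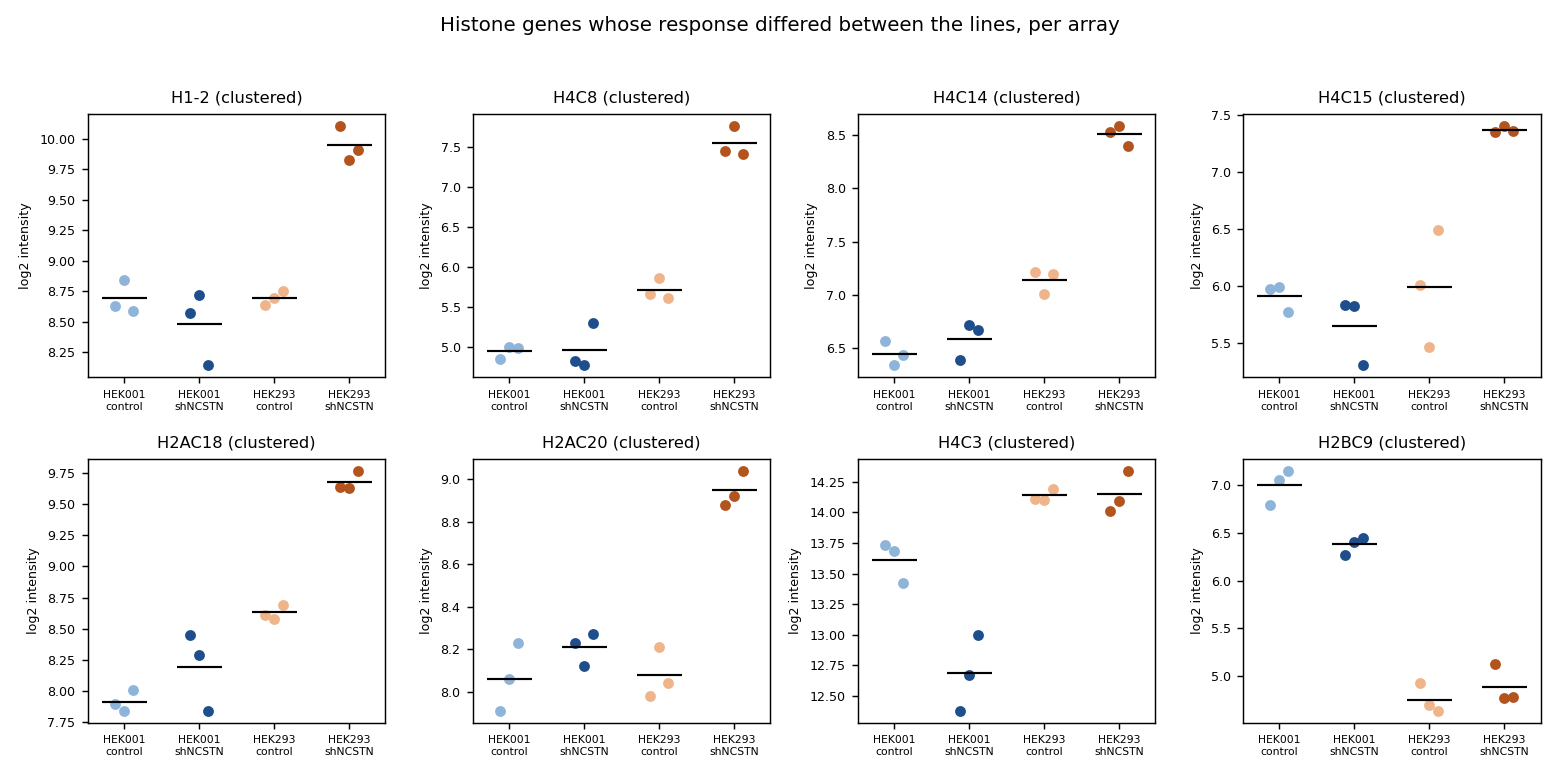
Normalized log2 intensity on each of the 12 arrays for 8 clustered genes whose response differed between the lines. Points are arrays, black lines are group means of 3 arrays, and the vertical axes differ between panels. The first 6 genes are higher in HEK293 knockdown cells, and H4C3 and H2BC9 are lower in HEK001 knockdown cells.

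By protein type, the rises in HEK293 took in 5 of 7 clustered H2A genes, 3 of 8 H2B genes, 3 of 6 H4 genes, 1 of 2 H3 genes and 1 of 2 H1 genes, where 12.4% of all genes rose. Without H2AC11, H2BC8 and H3C10 these were 4 of 6 H2A, 2 of 7 H2B and 0 of 1 H3 genes. In HEK001, where 8.35% of all genes rose, they took in 2 of 7 H2A and 3 of 8 H2B genes and no H1, H3 or H4 gene. With 2 H1, 2 H3 and 6 H4 genes, the lack of a rise there is not read as a difference between types. By chromosome, 5 of the 8 clustered genes on chromosome 1 and 8 of the 17 on chromosome 6 (5 of 14 without H2AC11, H2BC8 and H3C10) rose in HEK293, and 2 of 8 and 3 of 17 in HEK001. The HEK293 rises on chromosome 1 include the near-identical pairs H2AC18 with H2AC19 and H4C14 with H4C15. Each pair counts as 2 genes here and in the H2A and H4 counts, and whether its probes read both copies was not analysed. The clustered genes called in neither line were H1-1, H2AC17, H2BC11, H2BC18, H2BC4, H3C7, H4C11 and H4C12. Of these 8, H1-1, H2AC17, H2BC18 and H2BC4 were detected on 3 to 5 arrays. The 3 genes whose probes were not kept were H3C13, H4C5 and H3C6, each detected on 1 or 2 arrays. Fitted without a filter, H3C13 was higher by 0.80 in HEK293 (limma adjusted p = 0.00135) at a level near background, and the other two were not called in either line.

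Many H2A and H2B genes lie head to head and share the stretch between their starts. In RefSeq, 3 pairs of measured H2A and H2B genes had starts less than 250 bases apart, H2BC21 with H2AC20 at 236 bases, H2BC4 with H2AC6 at 246 and H2BC11 with H2AC11 at 248. The partners were not called together in any of these pairs. H2AC6 rose in both lines, while H2BC4 was at 0.19 in HEK001 and 0.24 in HEK293 with a probe detected on 5 of 12 arrays. H2AC20 rose in HEK293 (0.87), where H2BC21 was at 0.06, and was at 0.14 in HEK001, where H2BC21 rose. H2BC11 was at −0.33 and 0.13 in HEK001 and HEK293, and H2AC11 was near background except in HEK293 knockdown cells. The differences between partners were not tested.

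Promoters were read from RefSeq for 33 of the 35 genes, 24 clustered and 9 variant, over the 250 bases before each start. On either strand, CCAAT was found for 19 of 24 clustered and 7 of 9 variant genes, and in 32.0% of all 35116 promoter windows. TATAAA was found for 17 of 24 clustered and 4 of 9 variant genes, and in 10.7% of all windows. The octamer ATTTGCAT, known from H2B promoters, was found for 7 of 8 clustered H2B genes, 4 of 7 H2A genes and 1.63% of all windows. The E2F-type site TTCCCGCC was found for 4 of 5 clustered H4 genes and in 2.72% of all windows. Some windows of head-to-head genes overlap, so 1 match can count for both partners, and genes with several starts were counted once. The sets that rose and did not rise in HEK293 held these letters in these shares: CCAAT in 10 of 13 and 9 of 11, TATAAA in 9 of 13 and 8 of 11, the octamer in 5 of 13 and 6 of 11. These shares were not tested.

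The 130 bases before a RefSeq start are shown for 3 genes that rose in both lines and 2 H4 genes that rose in HEK293. They lie on GRCh38.p14 at chr6:26157991-26158120 (H2BC5, plus strand), chr6:26124042-26124171 (H2AC6, plus strand), chr6:27146859-27146988 (H2BC12, minus strand), chr6:26285535-26285664 (H4C8, minus strand) and chr1:149832527-149832656 (H4C14, plus strand). Capitals mark matches to the 4 motifs on either strand. H2BC5 and H2BC12 have 2 promoter windows each, and the first listed is shown.
H2BC5: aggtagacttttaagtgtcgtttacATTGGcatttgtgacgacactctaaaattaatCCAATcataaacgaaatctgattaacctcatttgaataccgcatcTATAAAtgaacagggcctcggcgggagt
H2AC6: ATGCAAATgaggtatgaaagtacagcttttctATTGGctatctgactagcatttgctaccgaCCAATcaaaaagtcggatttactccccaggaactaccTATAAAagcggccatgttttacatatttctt
H2BC12: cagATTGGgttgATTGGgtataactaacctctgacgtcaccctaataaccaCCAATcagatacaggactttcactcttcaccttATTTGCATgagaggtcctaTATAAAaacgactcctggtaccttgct
H4C8: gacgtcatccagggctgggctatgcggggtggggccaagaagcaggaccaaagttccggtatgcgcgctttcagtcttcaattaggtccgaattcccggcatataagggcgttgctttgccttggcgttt
H4C14: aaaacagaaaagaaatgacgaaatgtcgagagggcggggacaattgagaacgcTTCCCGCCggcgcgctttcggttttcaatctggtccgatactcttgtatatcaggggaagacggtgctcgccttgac
H2BC5, H2AC6 and H2BC12 have CCAAT boxes and a TATA box in this stretch, and H2AC6 and H2BC12 also the octamer. H4C8 has none of the 4 motifs, and H4C14 has the E2F-type site alone.

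Between the control cells of the lines 21 of 35 histone genes were called, against 72.7% of all genes. Of the 35, 13 were higher and 8 lower in HEK293 than in HEK001, against 39.4% and 33.2% of all genes. With median scaling over all probes the counts were 6 and 7, against 2935 and 3891 of all 11075 genes. In the main setting the control arrays of the lines did not overlap for the 13 and 8 genes, as for 40.4% and 34.4% of all genes. Of the 25 clustered genes 8 were higher and 6 lower (median 0.09), and of the 10 variant genes 5 and 2 (median 0.14), with 0.07 over all genes. The clustered counts include H4C8, detected in HEK293 alone, and H2BC9 and H4C11, detected in HEK001 alone. Each passed the detection rule only through the line where it is higher, so its difference is given as a value only. H2AC25 was 6.12, 6.61 and 6.46 in HEK001 and 9.81, 9.48 and 9.50 in HEK293, 9.17-fold higher (log2 3.20, SE 0.127, limma adjusted p = 6.14e-11). H2BC11 was 3.47-fold higher in HEK293 (log2 1.80, SE 0.139, limma adjusted p = 6.47e-08) and H3-3B 2.95-fold (log2 1.56, SE 0.0955, limma adjusted p = 5.79e-09). In the other direction, H4C12 was at least 4.78-fold higher in HEK001 (limma adjusted p = 1.22e-07, detected on 2 of 3 HEK293 control arrays) and H2BC9 at least 3.15-fold (limma adjusted p = 3.16e-09). The p-values beside these bounds are of the fit to the measured values. Of the genes that rose in both lines on knockdown, H2BC5 (−0.92), H2AC6 (−0.65) and H2AJ (−0.52) were lower in HEK293 control cells, and H2AC19 (0.39) and H2BC12 (0.46) were higher. H2AZ1 was higher by 0.23 (SE 0.0835, limma adjusted p = 0.0254).

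**Figure D4:**
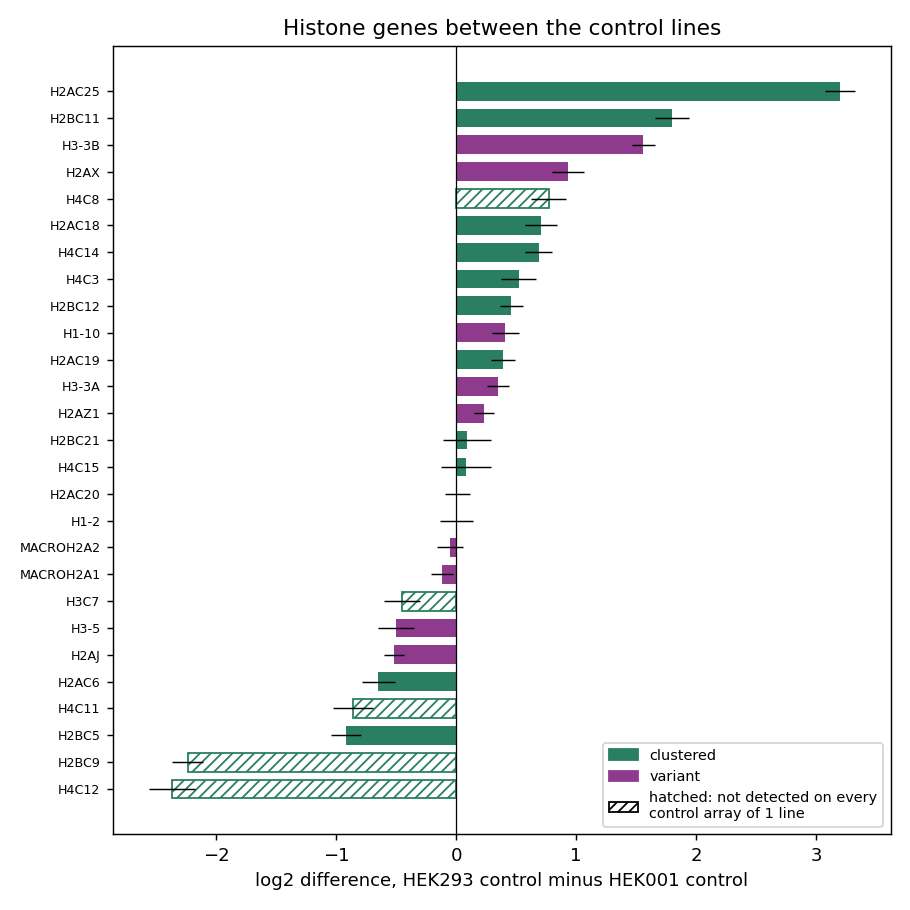
Log2 difference of HEK293 control minus HEK001 control cells for the 27 histone genes detected on all 3 arrays of at least 1 control group, with the standard error of the fit. H2AC25 has the highest bar at 3.20. The 5 hatched bars are of genes not detected on every control array of 1 line, H4C12 and H2BC9 among them, and their lengths are set against background. The 8 genes not shown were not detected on all arrays of either control group.

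Genes that make, process and deposit histones were counted beside them, against 8.35% of all genes higher and 7.89% lower in HEK001, and 12.4% and 13.5% in HEK293. In HEK293 the shares called higher in both lists were near that over all genes, so the genes named there are given as values only. Of 23 measured genes of histone transcription and mRNA processing, 1 rose and 5 fell in HEK001 (median −0.15), and 3 rose and 1 fell in HEK293 (median 0.17). ERI1, the exonuclease that acts on the histone stem-loop, fell by 0.38 in HEK001 and rose by 0.51 in HEK293. MIF4GD, a partner of the stem-loop binding protein, rose by 0.44 and fell by 0.37. CCNE1, the cyclin of the kinase that activates histone transcription, fell by 0.35 in HEK001, and SNRPD3, an Sm core protein gene, rose by 0.67 in HEK293. Of 25 genes of histone chaperones and deposition, 6 fell and 0 rose in HEK001 (median −0.18), and 3 rose and 1 fell in HEK293 (median 0.02). CENPA, the centromeric H3 variant outside the histone naming used here, fell by 0.61 and CHAF1B, a subunit of the replication-coupled chaperone CAF-1, by 0.59 in HEK001. In HEK293 DNAJC9 rose by 0.41, the CENPA chaperone gene HJURP by 0.36, and RBBP4 fell by 0.59.

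Of 22 measured genes of H2A.Z exchange, 1 rose and 2 fell in HEK001 (median −0.01), where 16.2% of all genes were called. In HEK293 5 rose and 2 fell (median 0.06), where 25.9% of all genes were called. The shares called in either direction were near those over all genes, so the genes named are given as values only. INO80C, an INO80 complex gene, rose by 0.90 in HEK001, where ING3 fell by 0.47 and YEATS4 by 0.33. In HEK293 ING3 rose by 0.63, while ACTR6 and ZNHIT1, both subunits of the SRCAP complex that inserts H2A.Z, fell by 0.60 and 0.53. EPC1 was also called higher in HEK293, from a probe detected on 1 of 3 control arrays. A link of these genes to the level of H2AZ1 was not tested.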

How the data were processed

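Per the file headers, 47318 probes on 12 arrays each have a signal and 3 further columns. The deposited signal is an intensity on a linear scale; 27.07% to 29.12% of its values per array were below 0. The deposited p-value is that of detection. The deposited bead count of kept histone probes was 8 to 37 per array (median 21). Bead errors (12 columns) were left out. Processed log2 values deposited by the authors cover 21270 probes, and every column has a median of 6.666. Their normalization is not given in the sources used here. GenomeStudio 2010 and R 3.0.2 are listed, with no step, per the submitters' processing notes.

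Background was corrected with limma's normexp model, whose parameters came from the detection p-values. An offset of 16 was added, and log2 values were quantile normalized. Probes detected at p under 0.01 on at least 3 arrays were kept, and the probe of highest mean stood for a gene. Other histone probes were taken from the fit over all kept probes. In the platform annotation 16040 probes have 1 gene, and 3 with several were left out. Symbols were updated through RefSeq. A mean for each of 4 groups was fitted to all 12 arrays with limma 3.58.1 in R 4.3.3 (8 residual and 12.8 total degrees of freedom), with Benjamini-Hochberg adjustment over all genes and calls under 0.05. The fit was tested on simulated data. No intervals are given for counting error, and 3 arrays per group limit the precision.

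Clustered means an older symbol starting with HIST. Values on every array are given for up to 8 called histone genes of largest difference per knockdown contrast and for 6 variant genes, and other lists name up to 2 called genes per direction. The members and lists were chosen with earlier results of these data known. Alternatives were no background correction, an offset of 50, median scaling, the authors' values, 2 other filters, all probes, only the compared arrays, a replicate block and each array left out. The file headers name no chips, so chip was not used as a block. Deviations of same-numbered replicates were only weakly correlated, so no pairing was used in the main fit.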

Additional observations from a re-analysis of the deposited data

Results flagged for a closer look

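For 17 histone genes the response to the hairpin differed between the lines (HEK293 difference minus HEK001 difference, limma adjusted p under 0.05 over all genes). Genes more positive in HEK293 by over 1 unit were H4C8 (1.81), H4C15 (1.64), H1-2 (1.47), H4C14 (1.22) and H2BC8 (1.10). Smaller positive differences were found for H4C3 (0.94), H2AC18 (0.77), H2BC9 (0.76), H2AC20 (0.73), H2AC17 (0.69), H3C10 (0.65), H2AX (0.58), H2BC5 (0.52), H2AC19 (0.45) and H2BC12 (0.42). H2AC25 (−0.62) and H3-3B (−0.46) were more negative in HEK293. H2BC5, H2AC19 and H2BC12 rose in both lines, and H4C3 and H2BC9 fell in HEK001. No HEK293 array detected H2BC9, so its difference is not measured on both sides. H2AX, H2AC17 and H3-3B passed in neither line alone. H2AC17, H2BC8, H3C10 and H4C8 were not detected on most HEK001 arrays, nor H2BC8 and H3C10 on any HEK293 control array. The call of H2BC5 (limma adjusted p = 0.0497) was lost under 7 of 9 other settings, the authors' values among them, and its second probe gave 0.06 (limma adjusted p = 0.841). Leaving out 1 array ended the calls of H2BC5 and H2BC12 for 9 of 12 arrays each, of H2AX and H3C10 for 8 and of H2AC19 and H2AC17 for 7.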

How the results depend on the processing

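The number of histone genes called was 10 in HEK001, 17 in HEK293, 17 for the difference between the lines and 21 between the control lines. Without background correction, with an offset of 50, with median scaling over kept probes, the authors' values, either other filter, all kept probes or the compared arrays alone, these counts stayed within 1.5 times. Median scaling over all probes, chosen after seeing the data, gave 6, 13, 6 and 13. It shifts the median of all genes between the control lines from 0.07 to −0.13. Among all genes it called 545 in HEK001 in place of 1799, 900 in HEK293 in place of 2868, and 796 in place of 2711 for the difference. Between the control lines it called 6826 in place of 8046. Leaving out 1 array gave 8 to 12 in HEK001, 16 to 17 in HEK293, 10 to 16 for the difference and 19 to 21 between lines. With the replicate number as a block the counts were 9, 16, 14 and 21, and the calls of H2BC21 in HEK001 and H3-3A in HEK293 were lost (limma adjusted p = 0.0534 and 0.0518). Same-numbered arrays of the 2 arms of a line had correlations of their deviations between −0.0472 and 0.0719. Such weak values do not exclude that same-numbered samples were handled together. No gene called in the knockdown contrasts or in their difference changed sign under any alternative, and single genes called between the control lines were not followed through the alternatives. H2AZ1, H2BC5 and H2AC6 kept their calls in both lines under every alternative run, as did H1-2, H4C8, H4C14, H4C15 and H2AC18 in HEK293 and H4C3 in HEK001. Calls of the difference between lines were lost most often. Probes near background limit what could be seen for H2AZ2 and for both clustered H3 genes.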
